A study of Canis lupus familiaris with 23 samples.

Results

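Expression of the drug and retinoid metabolizing enzymes was described across canine osteosarcomas, osteosarcoma cell lines and normal organs. The genes were chosen by symbol: cytochromes P450 with a numbered family, UDP-glucuronosyltransferases, glutathione S-transferases, alcohol and aldehyde dehydrogenases, aldo-keto reductases, sulfotransferases, flavin monooxygenases and N-acetyltransferases. Of 6540 genes that the array annotation names by a single symbol, 44 met this rule. They were read by 67 of the 23836 probe sets tested, and 19 of them had several probe sets. Where a gene had several, the brightest on average across all 23 samples stood for it. All values are log2 expression values after robust multi-array averaging (RMA). The samples were 15 primary osteosarcomas taken from dogs at surgery, ahead of any chemotherapy, together with cultures of 2 canine osteosarcoma lines. Liver, kidney and lymph node of normal research-colony dogs gave 2 samples per organ. Normal bone was not analysed here, so each tumor difference set a bone tumor against an unrelated organ. The study describes the normal samples of an organ as biological replicates that were neither pooled nor repeat assays. The labels do not say whether same-numbered samples of different organs came from the same dog.

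These enzymes clear drugs, pollutants, hormones and vitamin A derivatives in successive steps. Cytochromes P450 and flavin monooxygenases add or expose an oxygen group, alcohol and aldehyde dehydrogenases and aldo-keto reductases convert alcohols, aldehydes and acids into each other, and transferases then attach glucuronic acid, sulfate or glutathione so that the product can leave the body. Hepatocytes are the main site of this work, kidney tubule cells hold a partly different set, and a few of the enzymes serve sterol, folate or retinoic acid metabolism in many other cells.

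The labelled organs carried their own marker genes. The mean level of 15 hepatocyte markers lay between 9.87 and 10.24 in the 2 liver samples and between 4.90 and 5.37 in the 15 tumors. Kidney tubule markers (10 measured) ran from 8.31 to 8.59 in kidney and from 5.53 to 6.11 in tumors, and bone markers (9 measured) from 8.08 to 9.77 in tumors and from 7.57 to 8.28 in the cell lines. Of the lymphocyte list 5 genes were measured, with means of 7.40 and 8.57 in the lymph nodes and 5.39 to 6.21 in tumors. The arrays fell into 2 classes by their actin and Gapdh control probe sets. In 10 arrays the 5′ end of these transcripts read lower than the 3′ end by 3.15 to 6.45, and in the other 13 by -0.32 to 0.85. The first class held 7 tumors and replicate 1 of each organ, the second 8 tumors, both cell lines and replicate 2 of each organ. Calls of tumors against liver, kidney and lymph node that were lost within a class are named below. Calls between organs were also lost within a class. They are not named gene by gene, and each class held 1 sample per organ. In the organs the class and the replicate number cannot be told apart.

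Liver held the highest mean level for 25 of the 44 genes and kidney for 13. The cell lines were highest for AKR1B1, ALDH1L2, CYP1B1 and NAT10, lymph node for SULT2B1 and the tumors for CYP46A1. A gene was called dim in a group when its mean lay below 4.85, the median over all probe sets and arrays. Above this border were 40 genes in liver, 35 in kidney, 28 in lymph node, 27 in tumors and 23 in the cell lines. The median level of the 44 genes was 8.78 in liver, 7.15 in kidney, 5.25 in lymph node, 5.23 in tumors and 5.0 in the cell lines, while over the 6540 named genes the medians ran from 6.26 in liver to 6.55 in the cell lines. NAT10 and SULT2B1 were dim in all 5 groups, and 6 more genes (CYP1A2, CYP2B6, CYP2E1, CYP3A12, SULT1C2 and UGT2B31) were dim in all groups but 1. Differences between dim groups are compressed by the array, so a fold change against such a group is likely to be understated. In tissue samples, fewer cells of a type and less RNA per cell cannot be told apart.

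**Figure D1:**
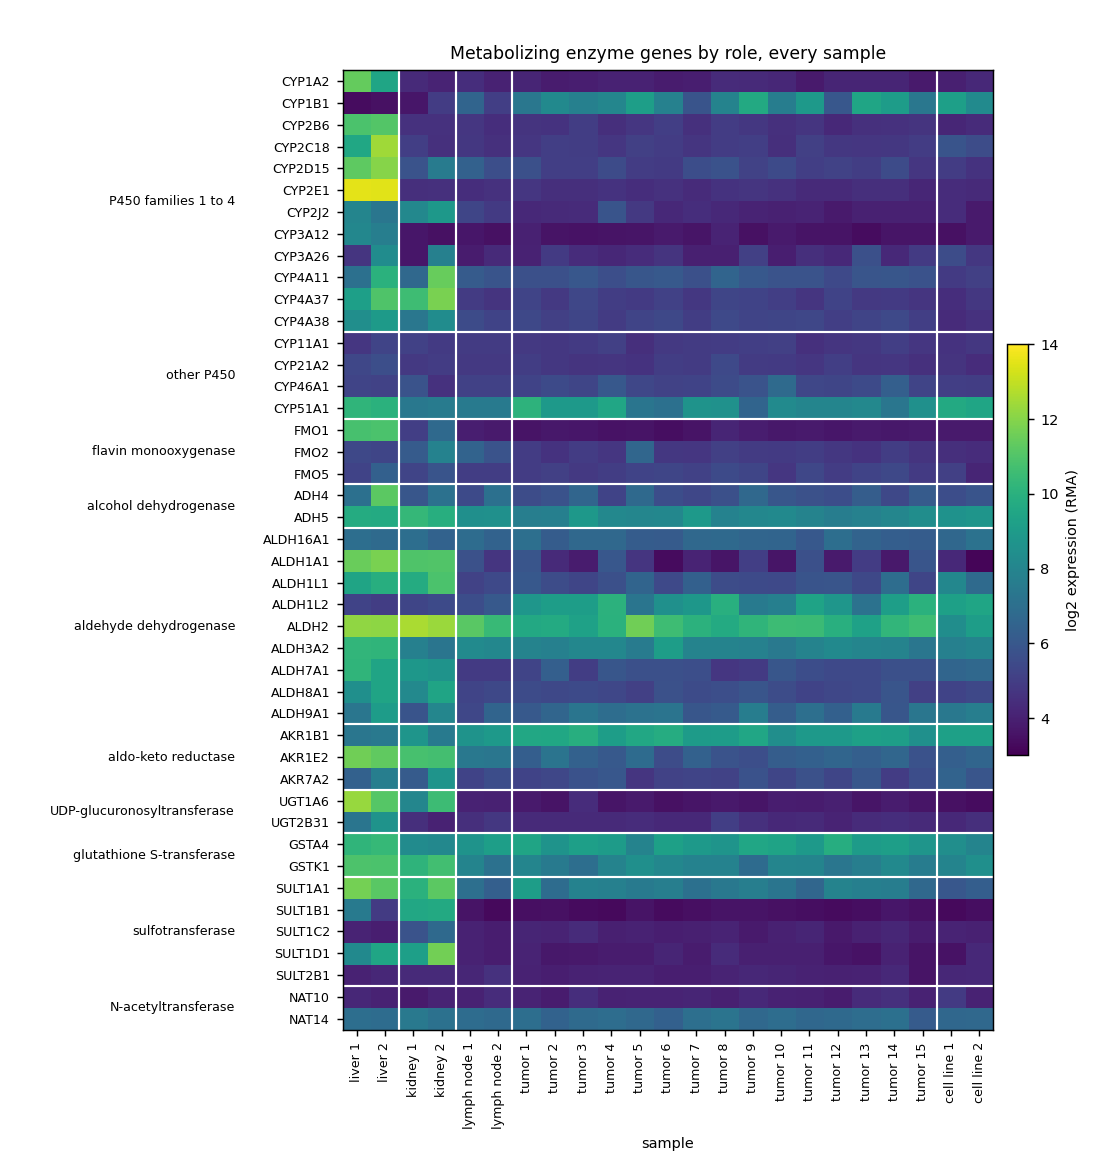
Log2 expression (color scale) of the 44 enzyme genes, grouped by role on the vertical axis, in each of the 23 samples on the horizontal axis. The liver columns are bright for most rows, with CYP2E1 at 13.56 and 13.52, and the kidney columns for a smaller set, while ALDH1L2 and CYP1B1 are bright in the tumors and cell lines.

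The first comparison asked how far tumors lay from liver. In tumors 29 of the 44 genes were lower than in liver and 3 were higher, at an adjusted p (limma, Benjamini-Hochberg over all probe sets) below 0.01. Among the named genes 7.72% were lower and 6.09% higher in the same contrast. The median difference, tumor minus liver, was -2.71 over the 44 genes and 0.10 over the named genes. Over 8-fold lower were 21 of the 29. The share of the named genes over 8-fold lower was not computed. The calls in arrays of low 5′ signal alone numbered 23, and in arrays of full 5′ signal alone 28. Lost in both classes were ADH5, AKR1B1, ALDH1L2 and GSTA4, in the low class alone AKR7A2, CYP1B1, CYP21A2, CYP2J2 and CYP4A11, and in the full class alone ALDH2 and ALDH3A2. With the organ replicate number as a block in the fit of all 23 samples, GSTA4 (adjusted p = 0.0297), CYP21A2 (0.0294), CYP4A11 (0.0791) and AKR7A2 (0.0812) were not called.

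Cytochromes P450 of families 1 to 4, which handle drugs and fatty acids, made up 10 of the 29. CYP2E1, which oxidizes ethanol and small solvents, read 13.56 and 13.52 in the livers and 4.19 to 4.72 (median 4.49) in the tumors. The groups lay far apart, and kidney (4.47 and 4.54), lymph node (4.45 and 4.57) and cell lines (4.40 and 4.32) fell inside the range of the tumors. The difference was -9.06 ± 0.11 (SE; 532-fold, limma adjusted p = 2.29e-23). CYP1A2, a caffeine and arylamine oxidase, read 11.42 and 9.47 in liver and 3.78 to 4.37 in tumors, a difference of -6.40 ± 0.27. That SE rests on a spread pooled over all groups, while the SD was 1.38 in liver and 0.19 in tumors. CYP2B6, which metabolizes barbiturates and cyclophosphamide, read 10.90 and 11.06 against 4.27 to 5.02, a difference of -6.32 ± 0.15. CYP2D15, the canine CYP2D enzyme, was 6.39 ± 0.32 lower than in liver and stood at 4.76 to 5.76 in tumors. In all 4 genes the 15 tumors lay below both livers. CYP2C18 differed by -6.11 ± 0.37, with 9.55 and 12.42 in the livers. CYP3A12, a canine enzyme of the large drug-oxidizing CYP3A family, read 8.10 and 7.71 in liver and 3.39 to 4.12 in tumors.

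The CYP4A genes encode fatty acid omega-hydroxylases and are close copies of each other, so a probe set may read more than 1 of them. CYP4A37 was lower in tumors than in liver by 5.08 and CYP4A38 by 3.49 (adjusted p = 2.73e-11 and 3.76e-12). CYP4A11 read 7.04 and 10.04 in the 2 livers against 5.44 to 6.56 in tumors, a difference of -2.68 ± 0.69 whose adjusted p of 0.00976 was just under the threshold and exceeded it when any of 20 samples was left out in turn (highest 0.517). In the arrays of low 5′ signal this difference was -1.22 (adjusted p = 0.0810) and in the others -4.14 (4.65e-08). CYP2J2, an arachidonic acid epoxygenase, was lower in tumors than in liver by 3.35 ± 0.35. CYP3A26, a second canine CYP3A gene, missed the threshold, with 4.71 in liver 1 and 8.36 in liver 2 against 3.92 to 5.69 in tumors (adjusted p = 0.0695). Its other probe set read 8.21 lower in tumors than in liver (adjusted p = 1.61e-14), so the call depended on the probe set chosen.

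Among the other oxidizing enzymes, FMO1, a flavin monooxygenase of nitrogen- and sulfur-containing drugs, read 10.82 and 10.90 in liver and 3.41 to 4.12 in tumors. The difference of -7.15 ± 0.24 corresponded to 142-fold. ADH4, a liver alcohol dehydrogenase that also oxidizes retinol, read 7.08 in liver 1 and 11.22 in liver 2 against 5.22 to 6.77 in tumors. No tumor reached either liver, and the difference was -3.27 ± 0.64. It was not called without liver 2 (adjusted p = 0.256). ADH5, which oxidizes formaldehyde bound to glutathione and is used by most cells, was lower by 1.66 ± 0.25.

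Aldehyde dehydrogenases gave 6 of the 29. ALDH1A1 converts retinaldehyde into retinoic acid. It read 11.50 and 11.78 in liver, 3.33 to 5.99 (median 4.31) in tumors, and 4.25 and 3.15 in the cell lines, so that the tumors lay far below both livers. The difference was -7.07 ± 0.63 (134-fold, limma adjusted p = 2.61e-08). ALDH8A1, which also accepts retinaldehyde, was lower by 3.49 ± 0.25. ALDH7A1, a lysine-degrading enzyme, was lower by 4.28, and ALDH1L1, which oxidizes formyl-folate in the cytosol, by 3.86. ALDH2, the mitochondrial acetaldehyde dehydrogenase, was among the brightest enzymes in every group. It read 12.17 and 12.11 in liver against 9.27 to 11.63 in tumors, a difference of -2.01 ± 0.41 that was not called without either liver (highest adjusted p = 0.0337) or in the arrays of full 5′ signal (-1.89, 0.164). ALDH3A2, a fatty aldehyde dehydrogenase, read 10.22 and 10.21 against 7.34 to 9.11.

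Both glucuronosyltransferases, both glutathione transferases and 3 of the 5 sulfotransferases were lower than in liver. UGT1A6, a glucuronosyltransferase of phenols, read 12.29 and 11.11 in liver and 3.51 to 4.39 (median 3.76) in tumors. The difference was -7.93 ± 0.36 (245-fold, limma adjusted p = 3.14e-13). Members of the UGT1A family share the end of their transcripts, and the probe set may read more than 1 of them. UGT2B31, a canine glucuronosyltransferase of phenols and opioids, was lower by 3.60 ± 0.23, and its other probe set by 9.09. The sulfotransferases SULT1D1 and SULT1A1, which sulfate phenols and monoamines, were lower by 4.95 and 3.89. SULT1B1 stood at 7.51 in liver 1 and 4.90 in liver 2, against 3.30 to 3.68 in tumors. The glutathione transferases GSTK1 and GSTA4 were lower by 3.15 ± 0.32 and 1.24 ± 0.30, and GSTA4 lost its call without either liver (highest adjusted p = 0.115) and in the arrays of low (0.166) and of full 5′ signal (0.0875). The aldo-keto reductases AKR1E2 and AKR7A2 were lower by 5.19 and 1.66, and AKR7A2 lost its call when any of 17 samples was left out (highest adjusted p = 0.352).

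The 3 genes higher in tumors than in liver were CYP1B1, ALDH1L2 and AKR1B1. CYP1B1 is a P450 found mainly outside the liver that oxidizes estrogens, polycyclic hydrocarbons and retinol. It read 3.36 and 3.48 in liver and 5.87 to 9.70 (median 7.94) in tumors, a difference of 4.61 ± 0.77 (24.4-fold, limma adjusted p = 0.000171). ALDH1L2, the mitochondrial partner of ALDH1L1 in folate metabolism, read 5.19 and 4.99 in liver and 7.13 to 10.05 (median 8.83) in tumors. The difference was 3.66 ± 0.61 (12.7-fold, adjusted p = 0.000183). AKR1B1, aldose reductase, read 7.31 and 7.45 in liver and 8.44 to 9.89 in tumors, a difference of 1.85 ± 0.31. In each of these genes all 15 tumors lay above both livers. AKR1B1 just missed the threshold without liver 1 (adjusted p = 0.0116) and ALDH1L2 without liver 2 (0.0110). In the arrays of low and of full 5′ signal the differences were 4.07 (adjusted p = 0.0587) and 5.08 (0.00281) for CYP1B1. They were 3.85 (0.0148) and 3.52 (0.0513) for ALDH1L2 and 1.74 (0.0150) and 1.94 (0.0158) for AKR1B1. ALDH1L1 and ALDH1L2 catalyze the same reaction in different compartments, and they differed from liver in opposite directions.

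**Figure D2:**
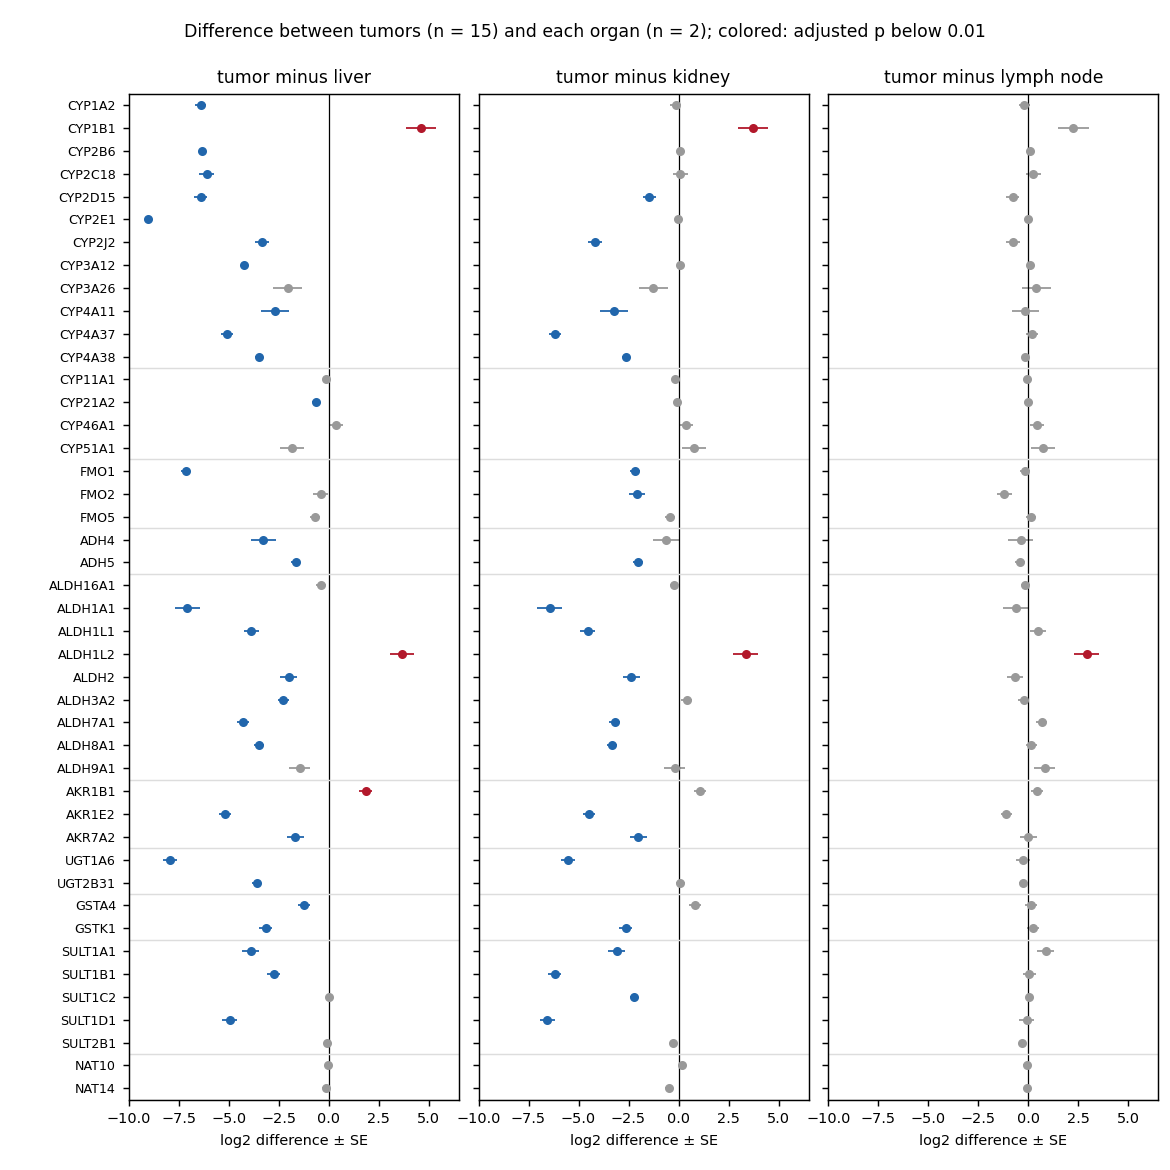
Log2 difference between the mean of 15 tumors and the mean of 2 samples of liver, kidney or lymph node for each of the 44 genes, ordered by role, with bars for the SE. Blue points were lower and red points higher in tumors at an adjusted p below 0.01: 29 and 3 against liver, 21 and 2 against kidney, 0 and 1 against lymph node.

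Against kidney, 21 of the 44 genes were lower in tumors and 2 were higher, with 7.19% and 3.65% of the named genes in these directions. The median difference was -0.94 over the 44 genes and 0.07 over the named genes. Over 8-fold lower were 12 genes. Within the low 5′ class ADH5, AKR7A2, CYP2D15, CYP4A11 and SULT1A1 lost their call, within the full class ALDH2 and FMO2, and within both ALDH1L2 and CYP1B1. With the same term for replicate 2 of the organs in all 23 samples, AKR7A2 (adjusted p = 0.0188), CYP2D15 (0.0298) and CYP4A11 (0.0171) were not called. Since both contrasts use the same tumors, the values of each organ are given beside each other. Lower than in both organs were 19 genes, lower than in liver only 10 (ADH4, ALDH3A2, CYP1A2, CYP21A2, CYP2B6, CYP2C18, CYP2E1, CYP3A12, GSTA4 and UGT2B31), and lower than in kidney only FMO2 and SULT1C2. The shares of the named genes in these patterns, and over 8-fold lower than kidney, were not computed, so these counts have no background beside them. Whether a gene differed between the organs was tested separately, as given further on.

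Of the 5 sulfotransferases 4 were lower than in kidney. SULT1D1 read 9.22 and 11.68 in kidney and 3.55 to 4.36 in tumors, a difference of -6.56 ± 0.37 (94.4-fold). SULT1B1, which sulfates thyroid hormone, read 9.61 and 9.68 in kidney against 3.30 to 3.68 in tumors (-6.19 ± 0.33). SULT1C2, a phenol sulfotransferase, read 5.80 and 6.74 against 3.76 to 4.36. In all 3 the 15 tumors lay below both kidneys. ALDH1A1 read 10.99 and 11.03 in kidney, a difference of -6.44 ± 0.63. UGT1A6 read 8.03 and 10.56, a difference of -5.53 ± 0.36, and AKR1E2 differed by -4.48 ± 0.30. CYP4A37 was lower than in kidney by 6.17, ALDH1L1 by 4.54 and CYP2J2 by 4.19. CYP2J2 read 8.13 and 8.86 in kidney and 3.79 to 5.85 in tumors, with tumor 4 the highest.

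FMO2, a flavin monooxygenase known mainly from lung, read 6.17 and 7.88 in kidney, 6.51 and 5.80 in lymph node and 5.39 and 5.31 in liver. In tumors it ran from 4.61 to 6.62 (median 4.88), and 14 of 15 tumors lay below all 6 organ samples. The exception was tumor 5. The difference from kidney was -2.08 ± 0.38 (adjusted p = 0.000622) and was not called without kidney 2 (0.111). CYP2D15 (5.83 in kidney 1, 7.58 in kidney 2), CYP4A11 (6.73 and 11.43) and AKR7A2 (6.15 and 8.69) also lost their call against kidney when kidney 2 was left out. Of these, CYP4A11 differed by -0.90 in the arrays of low 5′ signal and by -5.54 in the others, and CYP2D15 by -0.30 and -2.59. CYP1B1 (3.66 and 4.95 in kidney) and ALDH1L2 (5.32 and 5.47) were higher in tumors by 3.72 ± 0.77 and 3.36 ± 0.61, and both were not called without either kidney (highest adjusted p = 0.109 and 0.0223). In the arrays of low and of full 5′ signal the adjusted p was 0.0796 and 0.0259 for CYP1B1 and 0.0183 and 0.116 for ALDH1L2. AKR1B1 read 8.75 in kidney 1 and 7.54 in kidney 2 and differed by 1.08 ± 0.31 (adjusted p = 0.0266).

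Fewest of these genes differed between tumors and lymph node. Just 1 was higher in tumors (2.52% of the named genes were) and 0 were lower (3.43%), with 8 genes at an unadjusted p below 0.05. The median difference was -0.01 over the 44 genes and -0.01 over the named genes. ALDH1L2 read 5.61 and 6.06 in lymph node, below all 15 tumors, and differed by 2.92 ± 0.61 (7.56-fold, limma adjusted p = 0.00385). CYP1B1 read 6.53 and 5.04 in lymph node, 13 of 15 tumors lay above both, and the difference of 2.24 ± 0.77 had an adjusted p of 0.0891. The ALDH1L2 call was lost without either lymph node sample (highest adjusted p = 0.0928), and with the replicate number of the organs as a term in the fit of all 23 samples (0.0125). It was also lost in the arrays of low (0.0637) and of full 5′ signal (0.246). Without tumor 2, AKR1E2 was called lower than in lymph node (-1.16, adjusted p = 0.00648), and without tumor 5, FMO2 was (-1.32, 0.00176). FMO2 was also called lower in the arrays of low 5′ signal alone, which do not hold tumor 5.

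Tumor 5 differed from the other tumors in its cell type markers. The mean of 9 skeletal muscle markers was 9.21 there and 4.44 to 5.51 in the other 14 tumors, and the mean of 5 adipocyte markers was 7.44 there and 4.62 to 5.62 in the others. The fat hormone ADIPOQ read 10.63 in this tumor and the fast muscle myosin light chain MYL1 read 12.44, whereas leptin (LEP, 4.08) was dim. The same tumor held the highest FMO2 (6.62), ALDH2 (11.63), ADH4 (6.77), GSTK1 (8.48) and CYP2C18 values among tumors, and the lowest GSTA4, AKR7A2 and CYP11A1. The part of these markers in the enzyme values was not tested.

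**Figure D3:**
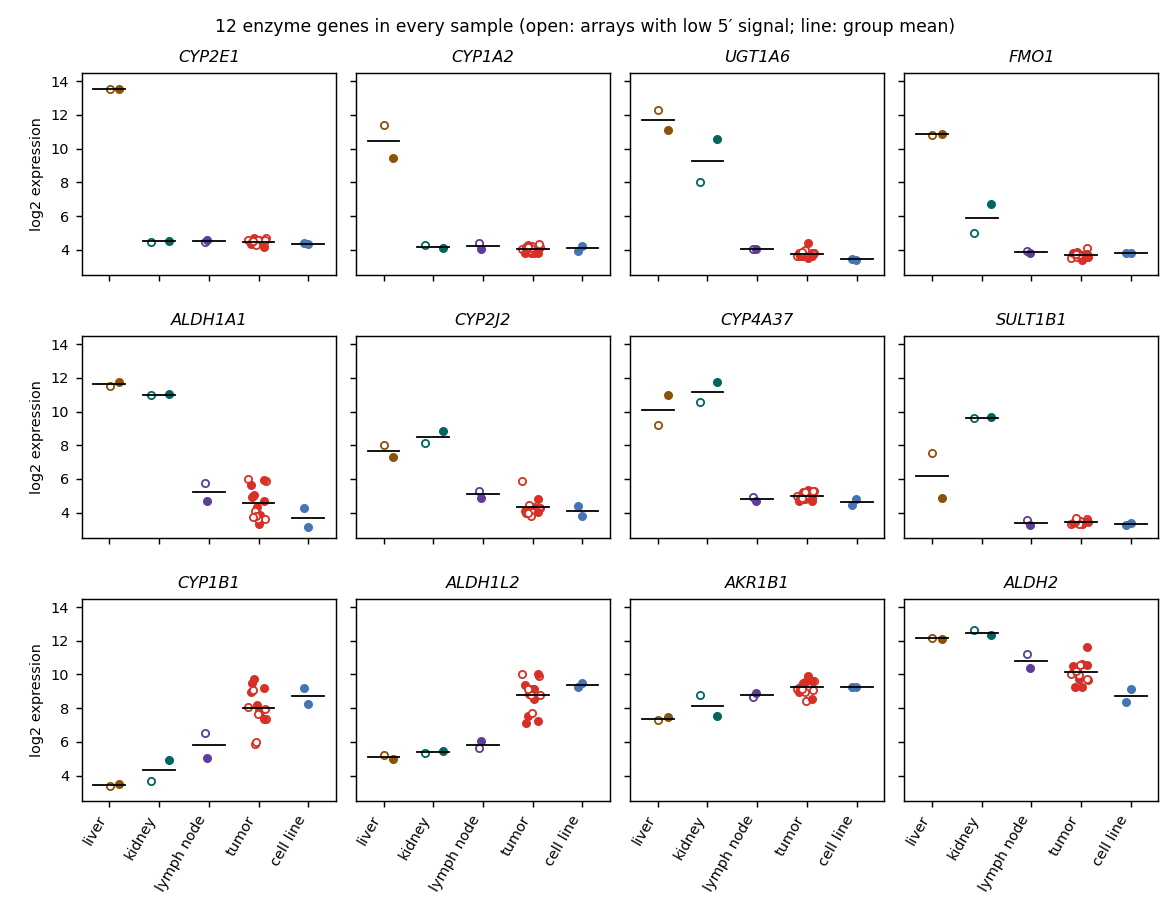
Log2 expression of 12 enzyme genes in each sample, by group on the horizontal axis. Points are samples, open points are arrays with low 5′ signal and lines are group means. CYP2E1 and CYP1A2 stand high in liver alone and CYP2J2 in kidney and liver. SULT1B1 stands high in kidney and in liver 1 (7.51), with 4.90 in liver 2. ALDH1L2 stands high in all 15 tumors and both cell lines.

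With all 6 organ samples taken as 1 normal group, 16 genes were lower in tumors and 3 were higher, against 4.51% and 4.74% of the named genes. ALDH1A1 (-4.71 ± 0.85), UGT1A6 (-4.58 ± 0.86), SULT1D1 (-3.87 ± 0.75), CYP4A37 (-3.68 ± 0.75), AKR1E2 (-3.59 ± 0.50), FMO1 (-3.16 ± 0.78), SULT1B1 (-2.96 ± 0.69) and CYP2D15 (-2.88 ± 0.68) had the largest negative differences among the genes called. CYP2E1 was not called here (-3.03 ± 1.11, adjusted p = 0.0778), and its 6 organ values were the 2 livers and 4 samples inside the range of the tumors. ALDH1L2 (3.32 ± 0.39), CYP1B1 (3.53 ± 0.54) and AKR1B1 (1.13 ± 0.25) were higher, with 15, 13 and 13 of 15 tumors above every organ sample. The count of 19 fell to 11 without kidney 2, to 12 without liver 1 and to 12 without liver 2. In the arrays of low 5′ signal alone it was 2 (ALDH2 and ALDH1L2) and in the others 1 (CYP1B1). FMO1 lost its call when any of 18 samples was left out, FMO2 with 17, ALDH1L1 and CYP2D15 with 14 each, SULT1B1 with 13 and GSTK1 with 10, with adjusted p up to 0.0348. AKR1B1 lost its call without kidney 2, liver 1 or liver 2 (highest adjusted p = 0.019). With organ as a random block AKR1B1 (adjusted p = 0.012), FMO1 (0.0108) and FMO2 (0.0259) were not called.

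The organs were then compared with each other. Liver exceeded kidney in 11 genes and kidney exceeded liver in 2, with 2.84% and 2.16% of the named genes in these directions. CYP2E1 was higher in liver by 9.03 ± 0.14 (523-fold, limma adjusted p = 1.02e-20). CYP2B6, CYP1A2 and CYP2C18 were higher by 6.41, 6.26 and 6.21, and FMO1, CYP2D15, CYP3A12 and UGT2B31 by 4.97, 4.93, 4.32 and 3.70. The remaining 3 were ALDH3A2 (2.67), UGT1A6 (2.41) and GSTA4 (2.07). SULT1B1 was lower in liver than in kidney by 3.44 ± 0.43 and SULT1C2 by 2.27 ± 0.21. Among the genes called, further probe sets took the same sign in 8 of 8 cases and passed the threshold in 5. That of UGT2B31 was higher in liver by 8.98. The chosen set of CYP3A26 was not called (0.81), but its other set was higher in liver by 6.93 (limma adjusted p = 7.98e-11). A further set of ADH4 was higher by 2.57 (0.00328), although the chosen one was not called. UGT1A6 was not called without kidney 1 or without liver 1 (highest adjusted p = 0.0780). In the arrays of low 5′ signal UGT1A6 was higher in liver by 4.26, and in those of full 5′ signal by 0.55. With the organ replicate number as a block in a fit of the 6 organ samples 6 genes were called, 5 of them among the 13, and the same 6 samples without the block gave 5. Not called with the block were SULT1B1 (adjusted p = 0.0670), SULT1C2 (0.0301), UGT1A6 (0.254), CYP2C18 (0.0285), CYP2D15 (0.0195), UGT2B31 (0.0189), GSTA4 (0.0105) and FMO1 (0.0105). In the fit of all 23 samples the block gave 14.

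Against lymph node, liver was higher in 22 genes (5.73% of the named genes) and lower in 0 (4.17%), with 35 genes at an unadjusted p below 0.05 in either direction. Kidney was higher than lymph node in 16 (5.06%) and lower in 0 (3.09%), with 19 at an unadjusted p below 0.05. The median difference was 2.57 for liver and 0.78 for kidney, against -0.11 and -0.07 over the named genes. CYP2E1 (9.03), UGT1A6 (7.66), FMO1 (7.0), ALDH1A1 (6.43), CYP2B6 (6.39), CYP2C18 (6.35), CYP1A2 (6.19) and CYP2D15 (5.61) led in liver. The chosen set of CYP3A26 was not called (2.46), but its other set was higher in liver by 7.83 (limma adjusted p = 8.79e-12). SULT1D1 (6.47), CYP4A37 (6.38), SULT1B1 (6.23), ALDH1A1 (5.80), UGT1A6 (5.26), ALDH1L1 (5.02), SULT1A1 (3.96) and ALDH7A1 (3.87) led in kidney. For kidney the block in the 6 organ samples gave 8 genes, all among the 16, against 4 without it in the same samples, and 18 in all 23 samples. Of the genes named for kidney, UGT1A6 (adjusted p = 0.0271), SULT1A1 (0.0142) and SULT1B1 (0.0101) were not called with the block in 6 samples. With the compared groups alone SULT1D1, CYP4A37, ALDH1A1, UGT1A6, ALDH1L1 and SULT1A1 were not called (highest 0.075). Of those named for liver, the block in 6 samples lost UGT1A6 (0.01002) and CYP2C18 (0.0154). In arrays of low 5′ signal alone kidney exceeded lymph node in 9.

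The 2 samples of an organ were then set against each other. The 2 livers differed by over 1 log2 unit in 13 of 44 genes (29.5%, against 9.17% of the named genes), and liver 1 was the lower one in 10. The 2 kidneys did so in 17 (38.6%, against 13.9%), with kidney 1 the lower one in 15. The lymph nodes did so in 4 (9.09%, against 10.9%). CYP4A11 (liver 7.04 and 10.04, kidney 6.73 and 11.43), CYP3A26 (liver 4.71 and 8.36, kidney 3.65 and 7.80) and ADH4 (liver 7.08 and 11.22) had the largest differences. SULT1B1, CYP1A2 and UGT1A6 ran the other way in liver, with 7.51, 11.42 and 12.29 in liver 1 and 4.90, 9.47 and 11.11 in liver 2. In kidney UGT1A6 was lower in replicate 1 (8.03 and 10.56).

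The array also carries 3 control probe sets placed along the CYP2E1 transcript, which no comparison used. The 3′ set read 11.66 in liver 1 and 11.80 in liver 2. The middle set read 10.53 and 12.51, and the 5′ set 4.39 and 11.48. In the other 21 samples the 5′ set ran from 3.78 to 4.42, so that liver 1 was indistinguishable there from samples without the transcript, although its 3′ value was close to that of liver 2. Liver 1 was an array of low 5′ signal. Within the arrays of low 5′ signal CYP2E1 was lower in tumors than in liver by 9.04 and within the others by 9.06.

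**Figure D4:**
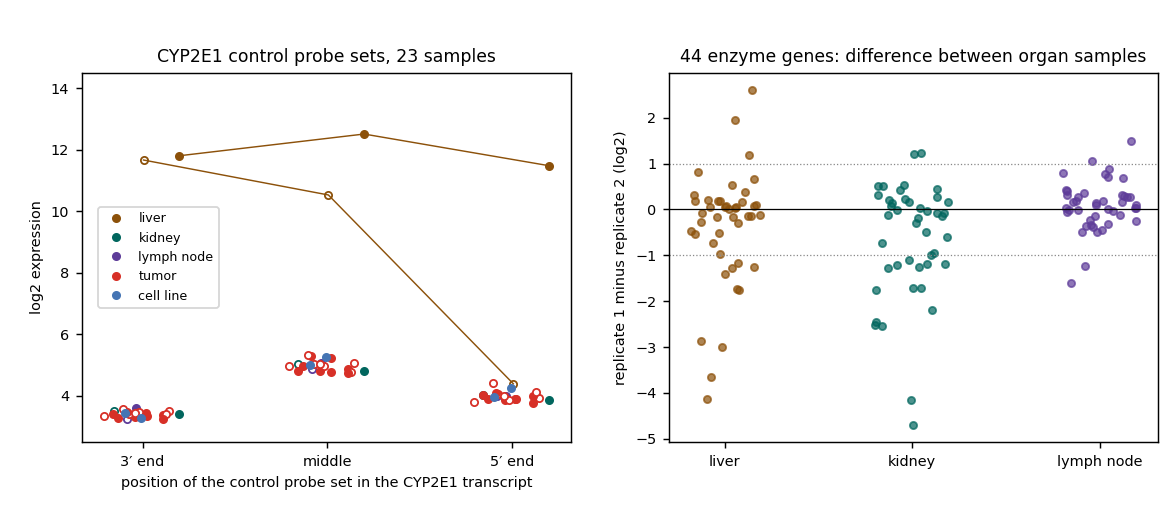
Left, log2 expression of the 3 CYP2E1 control probe sets in 23 samples, with lines joining each liver sample and open points for arrays with low 5′ signal; liver 1 falls from 11.66 at the 3′ end to 4.39 at the 5′ end. Right, replicate 1 minus replicate 2 of each organ for the 44 genes (points, log2), with dotted lines at a difference of 1 in either direction.

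In the cell lines 1 gene was higher than in tumors and 1 was lower, against 5.84% and 2.92% of the named genes. ALDH1L1 read 8.07 and 6.79 in the cell lines and 5.28 to 6.92 (median 5.56) in tumors. The ranges overlapped at cell line 2, and the difference was 1.65 ± 0.38 (3.13-fold, limma adjusted p = 0.00676). Without cell line 1 it was not called (adjusted p = 0.257). CYP4A38 read 4.37 and 4.59 in the cell lines, below all 15 tumors (4.91 to 5.45), a difference of -0.75 ± 0.18 (adjusted p = 0.00958). Both cell line values were dim, the other probe set of CYP4A38 differed by 0.15 in the opposite direction, and the call was lost in 18 of the fits that left out 1 sample. CYP1B1 (9.21 and 8.26), ALDH1L2 (9.23 and 9.48) and AKR1B1 (9.24 and 9.26) stood in the cell lines within the range of the tumors. ALDH1A1 (4.25 and 3.15) and UGT1A6 (3.48 and 3.39) were dim in both lines.

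Among the tumors the spread differed widely from gene to gene. The median SD over the 15 tumors was 0.31 for the 44 genes and 0.42 for the named genes. CYP1B1 had the largest SD (1.14), from 5.87 in tumor 7 to 9.70 in tumor 9. ALDH1L2 followed (0.96), from 7.13 in tumor 13 to 10.05 in tumor 4. CYP51A1, a cholesterol synthesis enzyme, ran from 6.54 in tumor 9 to 10.12 in tumor 1 (SD 0.95). It read 10.19 and 10.01 in liver, and tumors did not differ from liver at the threshold (-1.84 ± 0.60, adjusted p = 0.0452). ALDH1A1 had an SD of 0.95, and 8 of 15 tumors lay below all organ samples. SULT1A1 (0.61), ALDH9A1 (0.61), ALDH2 (0.60) and ADH4 (0.50) came next. SULT1A1 reached 9.11 in tumor 1, above the 7.94 of the next highest tumor.

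Between tumors on arrays of low 5′ signal (n = 7) and of full 5′ signal (n = 8), 1 gene was higher and 1 lower, against 0.81% and 3.03% of the named genes. CYP2D15 was higher by 0.54 ± 0.09 in the low class (means 5.52 and 4.99, adjusted p = 0.00112). ALDH9A1, an aminoaldehyde dehydrogenase used in carnitine synthesis, was lower by 0.99 ± 0.17 (6.23 and 7.23, adjusted p = 0.00162). CYP1B1 differed by -1.14 ± 0.49 (7.42 and 8.56, adjusted p = 0.192). The same gene ALDH9A1 was lower in replicate 1 of all 3 organs, with 7.34 and 9.07 in liver, 5.86 and 8.05 in kidney and 5.33 and 6.55 in lymph node. With the 5′ index as a covariate ALDH9A1 and CYP3A26 were called lower in tumors than in liver (-1.90 and -2.60, adjusted p = 1.45e-06 and 0.000617), and neither was without it.

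**Figure D5:**
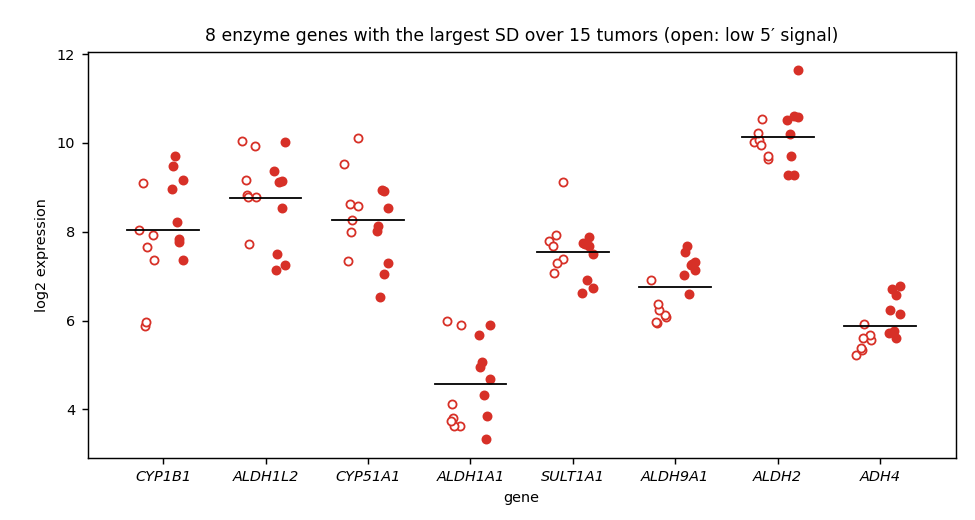
Log2 expression of the 8 enzyme genes with the largest SD over the 15 tumors. Points are tumors, open points arrays of low 5′ signal and lines the means. CYP1B1 spans 5.87 to 9.70, and ALDH9A1 is the gene of the 8 whose 2 classes of arrays differed at the threshold.

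The other 10 genes were not called between tumors and any organ. They were the steroid and sterol P450 genes CYP11A1, CYP46A1 and CYP51A1, CYP3A26, FMO5, ALDH16A1, ALDH9A1, NAT10, NAT14 and SULT2B1. CYP21A2, a steroid hydroxylase, was lower in tumors than in liver by 0.66 ± 0.16, with 5.34 and 5.65 in liver and 4.52 to 5.41 in tumors, so the groups overlapped, and it was not called without either liver (highest adjusted p = 0.192). CYP46A1, a cholesterol hydroxylase of the brain, reached 6.82 in tumor 10 and lay above every organ sample in 4 tumors. NAT10 and NAT14 match the symbol rule but are not the classical drug N-acetyltransferases. Where a gene had further probe sets, these took the sign of the chosen one in 20 of 21 cases among genes called against liver and in 13 of 13 against kidney. They passed the threshold themselves in 13 and 4. The exception was a further probe set of ALDH7A1 (0.03 against -4.28). In liver minus lymph node a further set of GSTK1 also took the other sign (-0.01 against 3.38).

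Genes around the enzymes were read from 3 further lists. Of 43 other drug metabolism genes listed, 30 were measured. Of these, 17 were lower and 1 was higher in tumors than in liver, with a median of -2.03 (named genes 0.10, of which 7.72% were lower and 6.09% higher). The paraoxonase PON3 (-6.45), monoamine oxidase MAOB (-6.32), the dihydropyrimidinase DPYS (-5.97), the microsomal glutathione transferase MGST1 (-5.13) and the carboxylesterase CES1 (-5.10) had the largest differences. PAPSS1, which makes the sulfate donor of the sulfotransferases, was higher in tumors than in liver (2.54) and in kidney (1.52). In kidney 8 of the 30 exceeded tumors, and tumors exceeded kidney in 2, where 7.19% of the named genes were lower and 3.65% higher in tumors.

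Of 39 retinoid handling genes listed, 20 were measured. Of these, 6 were lower and 1 was higher in tumors than in liver, with a median of -0.40, and the 1 higher gene of 20 was near the 6.09% of the named genes. RDH16, which oxidizes retinol to retinaldehyde, averaged 11.80 in liver and 4.53 in tumors (-7.27 ± 0.57, limma adjusted p = 3.53e-09). DHRS4, a retinaldehyde reductase, differed by -3.61, the carotene-cleaving BCO2 by -2.69 and the retinol carrier RBP2 by -2.45. RARRES1, a retinoic acid response gene, was higher in tumors than in liver (5.17) and in kidney (3.52). RBP4, the retinol carrier of the blood, averaged 13.63 in liver, 11.77 in tumors, 7.64 in kidney and 6.71 in lymph node. It was higher in tumors than in kidney by 4.12 ± 0.69 and than in lymph node by 5.06 ± 0.69.

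Of the xenobiotic sensors 6 of 22 listed genes were measured. The bile acid receptor NR1H4 was lower in tumors than in liver by 6.47 ± 0.36 and than in kidney by 4.84 ± 0.36, and it was higher in the cell lines than in tumors by 2.39 ± 0.36. Cell line 1 read 7.68 and cell line 2 read 5.0, against a tumor mean of 3.95, so the size of the difference rested largely on cell line 1. The liver transcription factor FOXA2 was lower in tumors than in liver by 2.37. AHR, the receptor through which pollutants induce CYP1B1, was added after its values were seen. It averaged 5.34 in liver, 4.99 in kidney, 5.10 in lymph node, 5.45 in tumors and 5.17 in the cell lines, and was not called in any comparison with tumors.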

How the data were processed

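RNA from 23 samples was hybridized to Affymetrix canine expression arrays. The deposited values are log2 expression values, which the authors made by RMA with the affy package per the submitters' processing notes (versions not given in the sources used here). RMA fits arrays to a common distribution, which hides a change in total RNA and compresses differences between dim probe sets. All 23836 probe sets that are not array controls were tested, with 77 controls set aside. Probe sets were named by the platform annotation where it gives a single symbol (10549; 138 had several symbols and 13149 none), and 43 of the 44 genes were found in a current RefSeq gene table. Close relatives (CYP4A, CYP2C, CYP3A, UGT1A) may share probes.

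Linear models were fitted with limma 3.58.1 in R 4.3.3, with 5 groups over all samples or, for tumor against normal, 2 groups. P-values were two-sided and adjusted by Benjamini-Hochberg, with a threshold of 0.01. Each SE and p-value used a spread pooled over the groups of the fit, most of whose samples are tumors. Where the 2 samples of an organ lay far apart, the SE and p-value do not measure that spread. The members and lists were chosen with earlier results of these data known. Genes named were the markers CYP2E1, ALDH1A1 and UGT1A6, up to 8 called genes with the largest differences per comparison and direction, those higher in tumors, the 8 with the largest SD over tumors, and those whose probe sets disagree. Other members are given by counts or where a sample decides their call. The deviations of same-numbered organ samples correlated (r = 0.53 to 0.61 over 23836 probe sets). Replicate 1 of each organ was an array of low 5′ signal and replicate 2 an array of full 5′ signal. The correlation therefore cannot tell a shared dog from the shared class. The replicate numbers were still used as a block, although the labels do not say what is shared. The scripts were checked on simulated data. Alternatives were an adjusted p of 0.05, eBayes with trend, median centring, a filter on dim probe sets, mean probe sets per gene, the compared groups alone, each class of 5′ signal alone, the 5′ index as a covariate, replicate blocks, organ as a random block and leaving out each sample.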

Additional observations from a re-analysis of the deposited data

Results flagged for a closer look

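Of the probe sets whose annotation gives several symbols, 7 matched the symbol rule and entered no count above. A liver signal that no other sample reached appeared in 4 of them. A probe set for CYP2A13 or CYP2A7, relatives of the nicotine-oxidizing P450, read 10.99 and 10.32 in the livers and 2.93 to 3.30 elsewhere, a gap of 7.02 between the lower liver and the highest other sample. A second probe set for the same pair read 12.03 and 10.45 against 3.33 to 4.11, a gap of 6.35. A probe set for CYP3A4 or CYP3A12 read 12.44 and 12.04 against 3.24 to 3.93, a gap of 8.11, and a second one read 7.16 and 5.55 against 3.03 to 3.78, a gap of 1.77. Which of the paired genes was read is not settled by these values. The rest of the 7 showed no such liver signal. A probe set with GSTP1, a further glutathione transferase, among its symbols read 11.28 and 11.42 in liver and 11.27 and 11.65 in kidney. In tumors it ran from 8.71 to 10.77, below all liver and kidney samples.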

How the results depend on the processing

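The counts of called genes against liver (32) and kidney (23) stayed within 1.5 times under every alternative run, with 25 to 32 and 17 to 23 when 1 sample was left out, and no called difference changed sign. The other counts moved. For tumor minus lymph node (1) the count was 2 at an adjusted p below 0.05, 0 in the arrays of full 5′ signal, 0 with the compared groups alone, 0 with the replicate block in all 23 samples, and 0 to 2 when 1 sample was left out. For tumor minus normal (19) it was 2 and 1 in the arrays of low and full 5′ signal and 11 to 23 when 1 sample was left out. For cell line minus tumor (2) it was 5 at an adjusted p below 0.05, 1 with the trended eBayes, 1 after median centring, 0 with the mean of probe sets, 4 with the compared groups alone, and 0 to 3 when 1 sample was left out. For liver minus kidney (13), liver minus lymph node (22) and kidney minus lymph node (16), the compared groups alone gave 3, 10 and 3. The 6 organ samples gave 5, 12 and 4 without the replicate block, and 6 and 8 with it for the first and the last. Kidney minus lymph node gave 9 in the arrays of low 5′ signal. When 1 sample was left out, these 3 counts ran from 12 to 14, from 21 to 24 and from 15 to 17. Tumors of low minus full 5′ signal (2) gave 5 at an adjusted p below 0.05 and 2 to 3 without 1 tumor. The cause of these changes was not tested, and several of the fits hold fewer samples. The 6 organ samples without the block and the block in all 23 samples were chosen after seeing the data. In all 23 samples the block was the term for replicate 2 of the organs. It blocked the organs against each other, but set tumors against the level of replicate 1. Where leaving out 1 organ sample left a lone sample, that sample was assumed to vary like the other groups. With 2 samples per organ and 2 cell lines, the number of arrays and the closeness of dim values to background limit what could be called.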
